A study of Mus musculus with 4 samples.

Results

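Keratins, junction proteins, matrix proteins and their regulators were followed through 4 RNA-seq libraries of CD8+ T cells. The 34 genes of this group, called members here, were picked from earlier results on the same data because most of them stood highest in the responder library before therapy. Every member was found as an entry of that exact name, so 34 of the 59490 genes kept are described. Because their level in that library chose them, its height is given as a description and is not tested.

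The cells were CD8+ T cells with high CD11a, an integrin chain of antigen-experienced T cells, taken from blood of patients given an antibody against the inhibitory receptor PD-1. The labels state 1 dose every 3 weeks and 4 doses a cycle. They define 4 groups, each of 1 library: responder and non-responder, each before and after PD-1 blockade, written R-before, NR-before, R-after and NR-after from here on. All 4 carry the same sort label and protocol, with 1 ng of RNA as input. One protocol text says that every sample was drawn after a cycle of treatment, which goes against the group label of both earlier libraries, and the group label was followed. R-before and NR-before are titled as PD-1 positive and the other 2 are not, so time, that title and the patient cannot be told apart. No label says that any 2 libraries share a patient. The organism label names mouse, but the files hold human gene identifiers on hg38, and the data were read as human.

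Epithelial cells are held together by tight junctions, whose strands are made of claudins, and by adherens junctions built on cadherins, and their shape is kept by paired keratins of type I and type II. They sit on a basement membrane of laminins and type IV collagen, while stromal cells deposit fibronectin and fibrillar collagens around it. Circulating T cells are known to make little of these proteins, and keratins, EPCAM and claudins are used as markers of epithelium in blood samples.

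The libraries held between 65500644 and 129773591 counts, with a count for 26352 to 30272 genes. Levels are given as CPM, counts per 1e6 library counts after TMM scaling, which corrects library size for differences in composition. A count of 0 allows up to 3 counts, which is 0.0360 CPM in R-before and 0.0460 CPM in NR-before, and 0.0235 and 0.0268 CPM after therapy. Floors and 95% intervals cover counting error only, since amplified reads carried no stated molecular identifiers. With 1 library a group no difference below has a replicate check, and no p-value is given.

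Together the 34 members took 48296 counts in R-before, which is 0.0612% of that library (exact Clopper-Pearson 95% interval 0.0607 to 0.0618%). Their share was 0.00344% in NR-before (interval 0.0033 to 0.00358%). After therapy it was 0.000747% in the responder (interval 0.0007 to 0.000795%) and 0.00112% in the non-responder (interval 0.00106 to 0.00118%). The 4 intervals do not overlap, and the first library stands 17.8-fold above the second and 82.0-fold and 54.6-fold above the later ones. The sum was thus measurable in every library, although 12 members had no count in NR-before and 6, CTGF, RND3, LAMB3, CDH2, EPCAM and CLDN3, had none in any of the other 3 libraries. In bulk RNA, fewer cells of a type and less RNA per cell cannot be told apart.

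**Figure D1:**
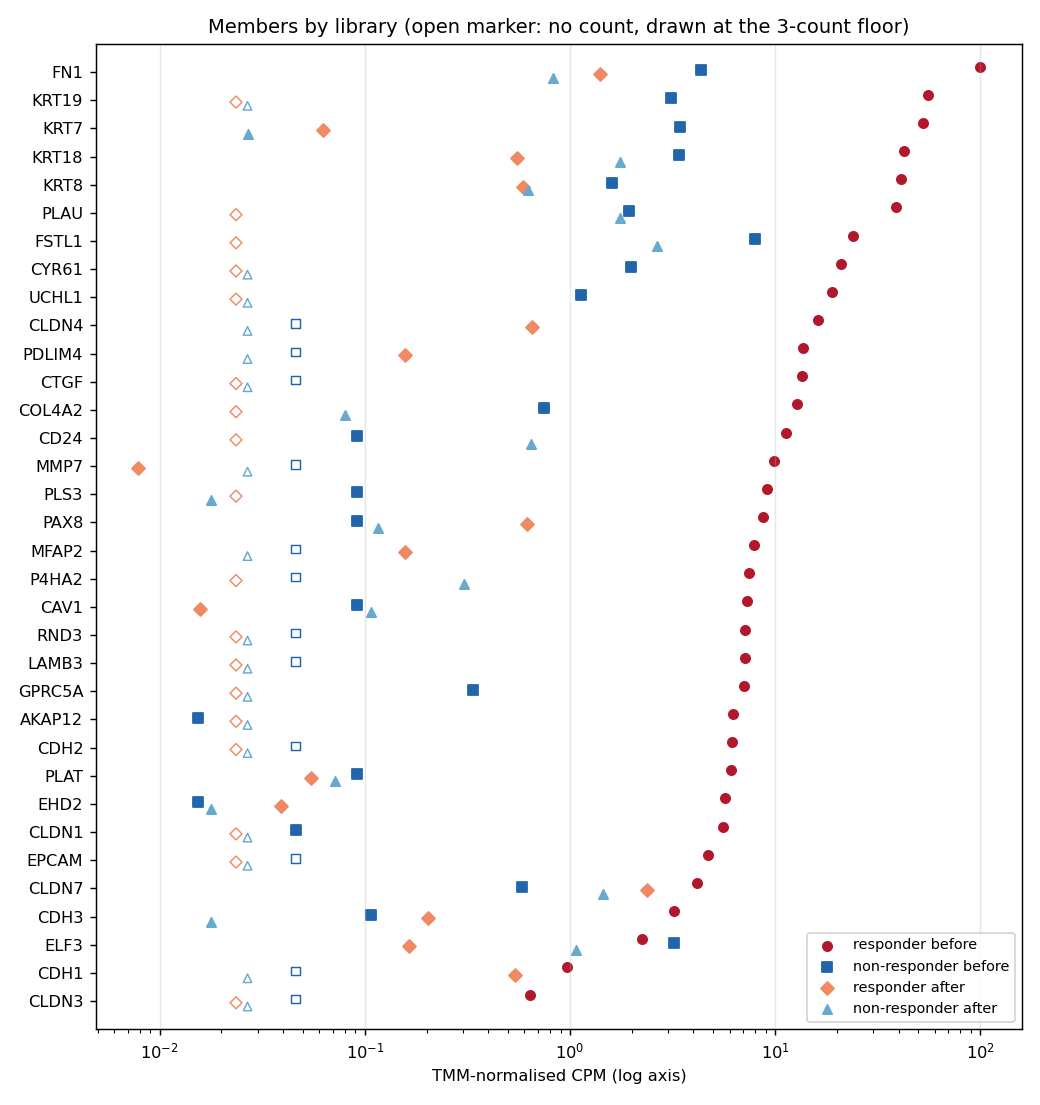
Level of each of the 34 members in each library, as TMM-normalised CPM on a log axis, ordered by R-before. Filled markers are measured levels, 1 or 2 counts can lie left of the floor, and open markers are members with no count, drawn at 3 counts. R-before is highest for 33 members, and ELF3 is the exception.

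All 34 members had a count in R-before, against 22 in NR-before, 16 in R-after and 17 in NR-after. Of the 34, 28 reached 5 CPM in the first library, 1 in the second and 0 in both later ones. All 28 were at least 2-fold above each of the other 3 libraries, where 1.1% of 13233 genes with 5 CPM in any library were so placed. At 4-fold and at 10-fold it was 27 members, against 0.499% and 0.264% of those genes. No member was at least 2-fold above each other library in NR-before, R-after or NR-after, where 2.57%, 1.19% and 4.71% of genes were. Since the members were chosen for this height, nothing is read from that count. Of the 28, 9 had no count in NR-before, 16 none in R-after and 14 none in NR-after. Among all 11662 genes at 5 CPM or more in the first library, those shares were 0.214%, 0.326% and 0.232%.

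The 4 simple keratins made up 33.1% of the members' counts in R-before, and each was lower in every other library. KRT8 and KRT18 are the type II and type I partners of the filament in simple epithelia, and KRT7 and KRT19 are the corresponding chains of ducts and glands. KRT19 (ENSG00000171345, chromosome 17: 41523617 to 41528308) stood at 55.5 CPM in R-before and 3.10 CPM in NR-before, and had no count in either library after therapy. KRT7 (chromosome 12: 52232520 to 52252186) stood at 52.9 and 3.45 CPM before therapy and at 0.0628 and 0.0268 CPM, or 8 and 3 counts, after it. Both later libraries were thus near or at the floor for these 2 keratins.

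KRT18 (chromosome 12: 52948871 to 52952901) stood at 42.4 CPM in R-before and 3.42 CPM in NR-before, and at 0.549 and 1.76 CPM after therapy. KRT8 (chromosome 12: 52897187 to 52949954) stood at 41.2 and 1.61 CPM before and at 0.589 and 0.625 CPM after therapy. After therapy the partners differed: KRT18 was lower in R-after than in NR-after beyond counting error, while the interval of KRT8 spans 0 (log2 ratio -0.09, interval -0.58 to 0.40). Before therapy the responder exceeded the non-responder 17.9-fold for KRT19, 15.3-fold for KRT7, 12.4-fold for KRT18 and 25.6-fold for KRT8. The log2 interval of KRT8 (4.40 to 4.97) lies above those of the other 3 keratins (3.96 to 4.37, 3.74 to 4.14 and 3.44 to 3.83), so the fold was not the same for all keratins beyond counting error. The spans of KRT8 and KRT18 overlap by 1.08 kb, and processed copies of both lie elsewhere in the genome, so low counts of this pair are uncertain.

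Levels of different genes can be compared only per length. Per kilobase of the length given in the files, KRT19 led all members in R-before at 23.7 CPM, followed by PLAU at 13.2, KRT18 at 13.2 and KRT7 at 12.9 CPM. FN1, first by CPM, was ninth per kilobase at 5.79 CPM. The members spanned 0.157 CPM per kilobase for CDH1 to that of KRT19, with a median of 1.92. FN1 alone made up 17.3% of the members' counts in that library.

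Of the junction genes, EPCAM, CDH2 and CLDN3 had no count outside R-before, while CLDN7, CLDN4 and CDH1 stood above 0.5 CPM in R-after. EPCAM, the epithelial adhesion molecule that is used to capture tumour cells from blood, stood at 4.71 CPM (392 counts) in R-before and had no count in the other 3 libraries. CDH1, the E-cadherin of epithelium, stood at only 0.973 CPM there and at 0.542 CPM in R-after, with no count in either non-responder. CDH2, the N-cadherin of neural and mesenchymal cells, stood at 6.14 CPM with no count elsewhere, and CDH3, the P-cadherin of basal epithelium, at 3.22, 0.107, 0.204 and 0.0179 CPM in R-before, NR-before, R-after and NR-after. In the first library the order per kilobase was CDH2 at 1.24, CDH3 at 0.516 and CDH1 at 0.157 CPM, so the cadherin most typical of epithelium was the lowest of the 3.

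The claudins did not share a pattern. CLDN4 (chromosome 7: 73799542 to 73832693), a claudin of tight epithelia, stood at 16.3 CPM in R-before and 0.651 CPM in R-after, with no count in either non-responder. CLDN1, which seals the skin barrier, stood at 5.6 CPM in the first library, at 3 counts in NR-before, and at 0 in both later libraries. CLDN3, whose gene lies 29.3 kb from CLDN4, reached only 0.637 CPM in the first library and was at 0 in the others. CLDN7 was present in all 4 libraries, at 4.14 and 0.583 CPM before therapy and at 2.39 and 1.46 CPM after therapy. It was only 1.74-fold above the next library, and its span overlaps that of ELP5, an abundant gene at 34.6 to 66.9 CPM, and of a further entry at 7.51 to 13.5 CPM. Strand settings are not given, so reads of these overlapping genes cannot be told apart.

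Matrix genes formed the other large block. FN1, fibronectin (ENSG00000115414, chromosome 2: 215360440 to 215436172), stood at 100.2 CPM in R-before and 4.34 CPM in NR-before, and at 1.40 and 0.831 CPM after therapy. It was the member with the highest CPM in the first library, 23.1-fold above the non-responder (log2 ratio 4.53, interval 4.36 to 4.71). LAMB3, the beta chain of laminin-332, stood at 7.10 CPM there and had no count in the other 3. COL4A2, a chain of basement membrane collagen, stood at 12.8 and 0.751 CPM before therapy, and at 0 and 0.0804 CPM after it, and its span overlaps that of COL4A1. All 3 were highest in the same library, and FN1 was the only one of them with counts in every library.

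FSTL1, a secreted glycoprotein of stromal cells, had the highest CPM of any member outside the first library. It stood at 24.1 CPM in R-before and 8.0 CPM in NR-before, at 0 in R-after and at 2.64 CPM in NR-after. Its 3.01-fold difference before therapy (log2 interval 1.45 to 1.73) was the smallest among members with 5 CPM. MFAP2, a microfibril protein, stood at 7.90 CPM with 0 counts in both non-responders and 0.157 CPM in R-after. P4HA2, a prolyl hydroxylase needed for stable collagen, stood at 7.49 CPM, with 0.304 CPM in NR-after and 0 in the other 2. MFAP2 and P4HA2 were thus each seen in only 1 of the 3 remaining libraries. An unnamed entry that overlaps MFAP2 had its most counts in R-after, at 755. SLC22A4, which overlaps P4HA2, had its most in NR-after, at 644. Without strand their reads and those of MFAP2 and P4HA2 cannot be told apart, so these low levels are uncertain.

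The members that are proteases of matrix turnover, PLAU, PLAT and MMP7, each had their highest level in R-before, the height for which members were chosen. PLAU, the urokinase that activates plasminogen at cell surfaces (chromosome 10: 73909177 to 73917497), stood at 38.9 and 1.93 CPM before therapy, at 0 in R-after and at 1.76 CPM in NR-after. The 2 non-responder libraries did not differ beyond counting error for PLAU (log2 ratio of after to before -0.14, interval -0.46 to 0.20). PLAT, the tissue-type activator, stood at 6.11 CPM in the first library and at 0.0549 to 0.092 CPM in the others. MMP7, a metalloprotease that glandular epithelium secretes, stood at 9.86 CPM with 1 count in R-after and 0 in both non-responders, so it was at least 214-fold above NR-before. The 2 plasminogen activators and MMP7 therefore shared the height in 1 library but not the residual level elsewhere.

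CYR61 and CTGF encode matricellular proteins that the coactivators YAP and TAZ switch on. CYR61 stood at 20.9 and 1.99 CPM before therapy, and CTGF at 13.5 and 0 CPM, and both had no count after therapy. CTGF was at least 295-fold above each other library, against 10.5-fold for CYR61 over NR-before. The interval of CYR61 (log2 3.13 to 3.66) ends below the lower limit of CTGF (7.90), so the 2 genes had unequal ratios beyond counting error.

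The remaining structural and signalling members were low or at 0 outside the first library. CAV1, the coat protein of caveolae, stood at 7.30 CPM against 0.0157 to 0.107 CPM elsewhere, and EHD2, an ATPase at the caveolar neck, at 5.71 CPM against 1 to 5 counts. RND3, an atypical small GTPase that acts on the actin cytoskeleton, stood at 7.10 CPM with no count elsewhere. PDLIM4, an actin-associated LIM protein whose gene lies within the span of P4HA2, stood at 13.6 CPM with 0.157 CPM in R-after and 0 in both non-responders. AKAP12, a kinase scaffold, stood at 6.25 CPM with 1 count in NR-before. PLS3, the actin bundler of non-haematopoietic cells, stood at 9.19 CPM, and GPRC5A, a receptor of lung and other epithelia, at 7.07 CPM, with 0.092 and 0.337 CPM in NR-before and at most 2 counts later. Of these 7 genes, none reached 0.4 CPM outside the first library.

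Surface and lineage genes completed the group. CD24, a mucin-like surface protein of epithelia, B cells and granulocytes, stood at 11.3 and 0.092 CPM before therapy, and at 0 and 0.643 CPM after it. UCHL1, a ubiquitin hydrolase of neurons and several epithelia, stood at 18.9 and 1.13 CPM before and had no count after therapy. PAX8, a transcription factor of thyroid, kidney and related epithelia (chromosome 2: 113215997 to 113278950), stood at 8.76 and 0.092 CPM before and 0.620 and 0.116 CPM after therapy. The entries PAX8-AS1 and an unnamed one within the same span stood at 31.9 and 22.9 CPM in the first library and at 4.72 to 8.77 CPM in the others, so their excess was smaller than that of PAX8, and without strand their reads and those of PAX8 cannot be told apart. ELF3, a transcription factor of epithelium, went against the rest, at 2.26 CPM in R-before and 3.22 CPM in NR-before (log2 ratio -0.51, interval -0.80 to -0.22). After therapy it stood at 0.165 and 1.07 CPM. Unnamed entries that overlap ELF3 stood at 0.733 and 0.829 CPM in R-before and at 2.30 and 1.33 CPM in NR-before. Without strand their reads and those of ELF3 cannot be told apart, so its ratios before and after therapy are uncertain.

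The comparison of the 2 libraries from before therapy asks how responder and non-responder differ at the start. With 5 CPM in R-before or NR-before there were 28 members, of which 28 lay 2-fold or more above NR-before and 0 below, where 11.5% of 12361 genes were higher and 8.93% lower. A member could pass the 5 CPM limit only through the responder library in all cases but FSTL1, so the count is a description. The median log2 ratio over these members was 6.49, or 6.61 with counts of 0 set to 3 counts, against 0.06 over all genes tested. Among the 9 members with at least 100 counts in both libraries, the ratio ran from 0.701 for ELF3 to 25.6 for KRT8. Among the 12 with no count in the non-responder it was at least 13.8-fold for CLDN3 and at least 354-fold for CLDN4, the lowest and highest bounds. CLDN4 had 1355 counts in R-before and 0 in NR-before, and KRT18 had 3529 and 223. The source of the counts in NR-before was not tested.

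**Figure D2:**
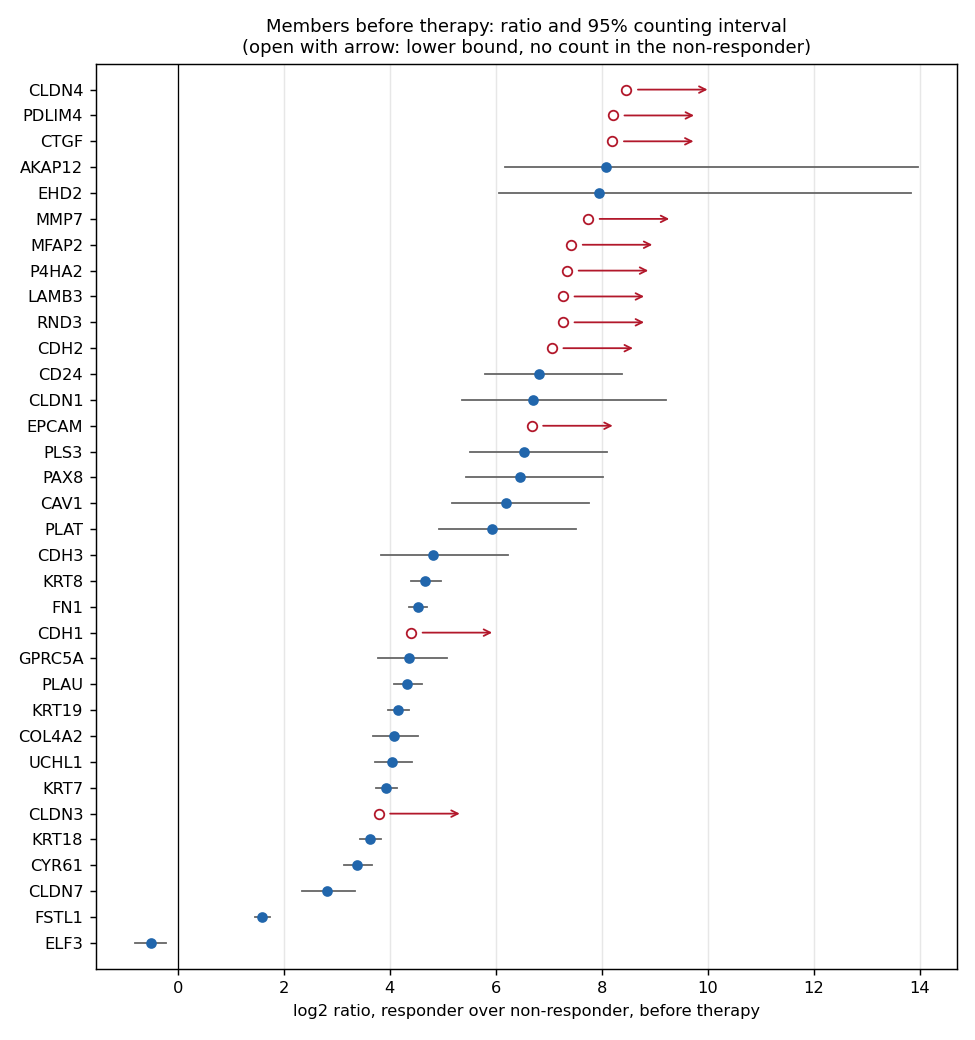
Log2 ratio of R-before to NR-before for each member, with its 95% counting interval as a line. Open circles with arrows are lower bounds for the 12 members with no count in the non-responder, set against 3 counts; the abundant members KRT8, FN1, PLAU, KRT19, UCHL1, KRT7 and KRT18 have log2 ratios from 3.63 to 4.67, FSTL1 and CYR61 of similar CPM lie lower at 1.59 and 3.39, and ELF3 lies below 0.

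The comparison of responder libraries after and before therapy used the same first library. No member reached 5 CPM in R-after, so members passed that limit only through R-before, the library that chose them. The count and the median are thus a description. Of 28 members with 5 CPM in either, 28 were at least 2-fold lower after therapy and 0 higher, where 4.7% of 12265 genes were lower and 8.5% higher. The median log2 ratio was -10.62, or -8.24 with counts of 0 set to 3 counts, against 0.07 over all genes tested. Of the 16 members with a count in R-after, those above 0.5 CPM were CLDN7 at 2.39, FN1 at 1.40, CLDN4 at 0.651, PAX8 at 0.620, KRT8 at 0.589, KRT18 at 0.549 and CDH1 at 0.542 CPM. CDH3, ELF3, PDLIM4 and MFAP2 followed at 0.157 to 0.204 CPM, and the other 5 had 1 to 8 counts. CLDN7 and CDH1 were less than 2-fold apart between the 2 responder libraries, 1.74-fold and 1.8-fold lower after therapy. For 9 members, R-after was the next highest library, and for 16 it was NR-before.

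The 2 comparisons without the first library involve few members. After therapy, 0 of 34 members reached 5 CPM in either library, where 5.79% of 12434 genes were at least 2-fold higher and 8.86% lower in R-after. In both libraries after therapy 12 members were at 0. At a limit of 1 CPM in either library 6 members could be compared. Of them 4, FSTL1, PLAU, KRT18 and ELF3, were at least 2-fold lower in the responder, where 14% of 17169 genes were lower. In the other direction 0 were higher, where 7.99% were. All 4 passed the limit only through NR-after, where they were higher, as FN1 did only through R-after, so the count is a description. KRT18 was 3.20-fold lower (log2 ratio -1.67, interval -2.09 to -1.28) and ELF3 6.50-fold lower (-2.67, interval -3.45 to -2.02). FSTL1 and PLAU were at 0 in R-after, which puts them at least 112-fold and at least 74.8-fold lower than in NR-after. FN1 was 1.69-fold and CLDN7 1.64-fold higher in the responder, short of 2-fold.

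Between the non-responder libraries, 11 members reached 1 CPM in either. Of these, 8 were at least 2-fold lower after therapy, where 14.1% of 17892 genes were lower, and 1, CLDN7, was higher, where 19.1% were. The 8 were FN1, KRT19, KRT7, KRT8, FSTL1, CYR61, UCHL1 and ELF3. Of the 8, only FSTL1 and ELF3 also reached 1 CPM in NR-after. The rest passed the limit only through NR-before, where they were higher, as CLDN7 did only through NR-after. The counts and the median at this limit are thus a description. KRT7 was 129-fold lower after therapy, from 225 counts to 3, and FN1 5.22-fold lower (log2 ratio -2.38, interval -2.74 to -2.04). At the 5 CPM limit only FSTL1 could be compared, 3.03-fold lower after therapy, where 8.25% of 12641 genes were at least 2-fold lower and 15.6% higher. At 4-fold it was 0 of 1, where 1.47% were lower. The median over the 11 members was -1.60, against 0.05 over all genes with 1 CPM.

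Other genes with the same placement were taken by a rule: no member, at least 5 CPM and 50 reads in R-before, and ranked by the ratio to the next highest library, with 0 set to 3 counts. In that ranking of all 11662 genes with 5 CPM in the first library, the first 50 places held 27 of the 28 members. Since the members were chosen for this height, nothing is read from their places. By the rule, the 20 genes furthest above the next library were taken. GSDMA, a pore-forming gasdermin of epithelium, stood at 5.18 CPM with no count elsewhere.

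Several of these genes belong to the matrix or to collagen crosslinking. LOXL2 and LOX, oxidases that crosslink collagen, stood at 30.1 and 5.89 CPM in the first library, and at 3.34 and 0.245 CPM in NR-before. COL1A2, a type I collagen chain, stood at 7.10 and 1.12 CPM before therapy with no count after it. LAMC1 stood at 8.14 CPM, LEPREL1, a collagen prolyl hydroxylase, at 6.02 CPM, and the claudin CLDN6 at 13.3 CPM. Also among the 20 were TUBB3, ANXA3, MYOM2, NNMT, FRMD6, S100A16, CXCL1, TM4SF1, KRT72 and C10orf55. The last overlaps PLAU and cannot be told apart from it. MYOM2, a muscle M-band gene, had the highest CPM of the 20, at 94.3 CPM against 2.94 to 9.82 CPM elsewhere.

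The 8 pathway lists below, and the 24 cell type lists after them, were drawn up from textbook knowledge with earlier results of these data known. For each, genes were counted that had 1 CPM in the first library, and those that were also at least 2-fold above each other library. Of all 59490 genes kept, 27.2% had 1 CPM there, and of those 3.39% were at least 2-fold above each other library. The median log2 ratio of the first library to the next was -0.38 over these genes. Members were chosen for this height, so each list that holds members is described without them.

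In the plasminogen and matrix protease list without PLAU, PLAT and MMP7, 3 of 6 genes with 1 CPM lay at least 2-fold above, among them SERPINE2 at 6.46 CPM and MMP2 at 4.42 CPM, and the median log2 ratio was 0.04. The urokinase receptor PLAUR and the inhibitor TIMP1 were highest in NR-after, at 150.7 and 97.1 CPM, and the collagenase MMP1 was at 0. In the caveolae list without CAV1 and EHD2, 3 of 5 did so (median 1.20), CAV2 at 3.60 CPM, PTRF at 5.97 CPM and PRKCDBP at 4.49 CPM. Among basement membrane and hemidesmosome genes without LAMB3 and COL4A2 it was 4 of 12 (median 0.30), among them LAMA3 at 1.69 CPM, LAMC1, and COL4A1 at 8.67 CPM, while COL17A1 of the hemidesmosome was at 0.

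Interstitial matrix genes without the 4 members gave 10 of 22 (median 0.81), with LOXL2 and COL1A1 at the highest CPM of the 10. More abundant genes of the list were not called. COL6A2 stood at 119.8 CPM in R-before and 236.9 CPM in NR-after, TGFBI at 53.8 and 98.5 CPM, and SPARC at 66.0 and 34.6 CPM. Without the 4 members the list summed to 391.2 CPM in R-before, 182.9 in NR-before, 247.2 in R-after and 538.8 in NR-after. YAP and TEAD targets without CYR61 and CTGF gave 4 of 14 (median 0.17), namely F3 at 3.51 CPM, AMOTL2 at 1.95 CPM, TGFB2 at 1.59 CPM and CCDC80 at 1.39 CPM. Tight junction genes without the 4 members gave 2 of 10 (median -0.33), CLDN6 and the scaffold TJP1 at 1.03 CPM. Adherens junction and desmosome genes without the 3 cadherins gave 1 of 9 (median -0.51), DSG2 at 1.5 CPM. Of the mesenchymal transition factors 0 of 2 did so, since ZEB1 and ZEB2, which T cells express, were the only ones with 1 CPM, and SNAI2 had 10 counts.

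To ask which tissue the gene mix resembles, the cell type lists were set side by side, leaving out organs that occur in 1 sex only. The pan-epithelial list without its 9 members gave 2 of 5 genes (median 0.37), among them MAL2 at 4.19 CPM. The transcription factor EHF was below 1 CPM but shared the placement, with 42 counts in R-before, 5 in NR-after and 0 in the other 2. ESRP2 stood at 6.31 CPM against 4.88 CPM in NR-before, ST14 and SPINT1 were highest in NR-after at 30.4 and 8.85 CPM, and GRHL2 had 9 counts in the first library against 26 in NR-before. The remaining epithelial genes of the list were thus mixed in their placement.

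The kidney tubule list without PAX8 gave 3 of 5 genes (median 1.24), among them the cadherin CDH6 at 1.12 CPM and the calcium binder CALB1 at 1.2 CPM. CDH6 (93 counts) had no count in the other 3 libraries, and PAX2 had 14 counts and LHX1 12 in R-before. Genes of the differentiated tubule were mixed. FXYD2 stood at 5.02 CPM in R-before and KCNJ1 at 1.90 CPM, highest there but less than 2-fold above NR-after, at 4.67 and 1.07 CPM. SLC34A1, SLC12A3 and AQP1 had 39, 34 and 26 counts in R-before and were higher in another library, as was CUBN, while UMOD, LRP2, AQP2, SLC22A6, SLC12A1, CDH16 and KL were at 0 there. The thyroid list without PAX8 gave 0 of 1 (median 0.20). Its factor FOXE1 had 45 counts in R-before and none elsewhere, below 1 CPM, and NKX2-1 was at 0 in R-before.

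The squamous and basal list gave 3 of 3 genes (median 1.96), KRT17 at 2.99 CPM, SFN at 3.57 CPM and S100A2 at 2.56 CPM, while KRT14, KRT6A, KRT13 and KRT16 were at 0, KRT5 had 1 count and TP63 had 4. The mesothelium list gave 2 of 3 (median 1.37), BNC1 at 2.13 CPM with no count elsewhere and LRRN4 at 1.90 CPM, while CALB2 was at 0 and WT1 had 14 counts. The neuroendocrine list without UCHL1 gave 0 of 1 (median -0.32), and CHGB and INSM1 were at 0 in R-before. The urothelium list gave 1 of 2 (median 0.69), UPK1A at 1.02 CPM. No genes were placed so in the lists of lung and airway (0 of 3), intestine (0 of 2), liver (0 of 2) and melanocyte (0 of 4). No gene reached 1 CPM in the first library in the lists of stomach, pancreas, endothelium and pluripotent cells. At 0 there were the surfactant genes SFTPA1, SFTPA2 and SFTPC, the intestinal factor CDX2, the liver genes HNF4A and TTR, the pigment genes TYR and TYRP1, and the endothelial genes CDH5 and KDR.

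The fibroblast list, which holds no member, was also high in NR-before. It gave 4 of 9 genes (median 0.69): COL1A1 at 18.9 CPM, COL1A2, THY1 at 3.63 CPM and FAP at 1.67 CPM. Its summed level was 78.1 CPM in R-before and 54.5 CPM in NR-before, against 11.6 and 3.86 CPM after therapy. PDGFRB was the largest part of each sum, at 35.0 and 24.5 CPM before therapy and at 8.30 and 2.21 CPM after it. It was not among the called genes, at 1.43-fold above NR-before. DCN stood at 3.03 and 4.55 CPM and LUM at 1.49 and 4.80 CPM in R-before and NR-before, and neither had a count after therapy. These proteoglycans of stroma were thus higher in the non-responder, opposite to the keratins. The smooth muscle and pericyte list gave 3 of 7 (median 0.53), TAGLN at 23.4 CPM, CNN1 at 2.34 CPM and ACTG2 at 1.2 CPM, while LMOD1 and DES were at 0. The rest of the 7 were not called. ACTA2 stood at 27.1 CPM, 1.11-fold above the next library, and MYLK at 6.16 CPM, 1.44-fold above. MYH11 at 21.3 CPM was higher in NR-before at 25.9 CPM, and RGS5 at 2.21 CPM was higher in NR-after at 4.90 CPM. Counts for single tissue lists rest on few genes, and no called gene of the squamous and mesothelium lists reached 5 CPM.

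**Figure D3:**
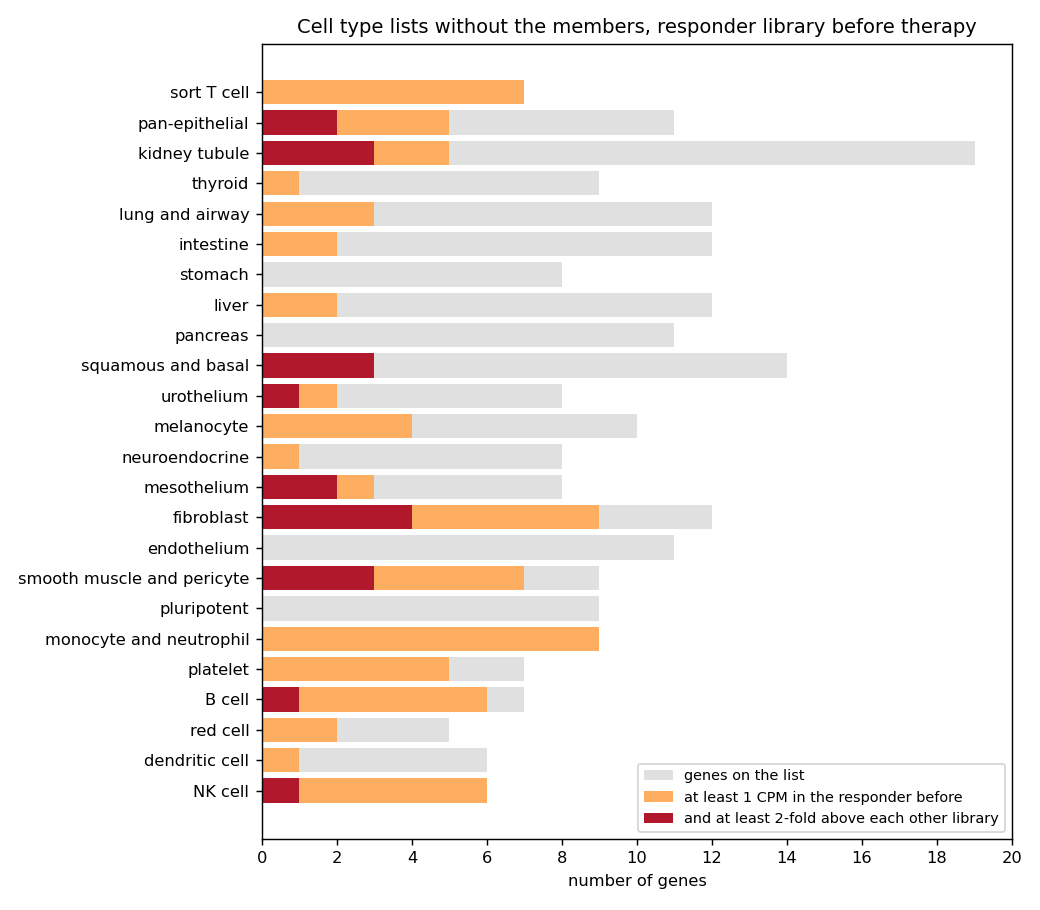
Number of genes on each cell type list after the members are taken out (grey), those with at least 1 CPM in R-before (orange), and those at least 2-fold above each other library as well (red). The red part counts 4 genes for fibroblast, 3 each for kidney tubule, squamous and basal, and smooth muscle and pericyte, and 2 each for pan-epithelial and mesothelium.

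Blood cell lists were read beside the members. The T cell markers of the sort, CD3, CD8, ITGAL and PTPRC, were all above 1 CPM in every library and summed to 4878 to 8453 CPM, with 6161 CPM in R-before, where the members summed to 580 CPM. Monocyte and neutrophil markers were lowest in that same library, at 103 CPM, against 159 CPM in NR-before and 1812 and 8612 CPM after therapy, and 0 of 9 were at least 2-fold above each other library. Platelet markers summed to 27.3 CPM there, between 16.9 and 173 CPM elsewhere. Dendritic cell markers (2.46 CPM) and red cell markers (2.85 CPM) were also lowest in that library. B cell markers gave 1 of 6, CD79B, and NK cell markers 1 of 6, KLRC1, and both lists summed to less there than in R-after. They summed to more there than in NR-before, at 78.3 against 55.2 CPM for B cells and 231.6 against 164.8 CPM for NK cells. The part of any other cell type in the members' levels was not tested.

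**Figure D4:**
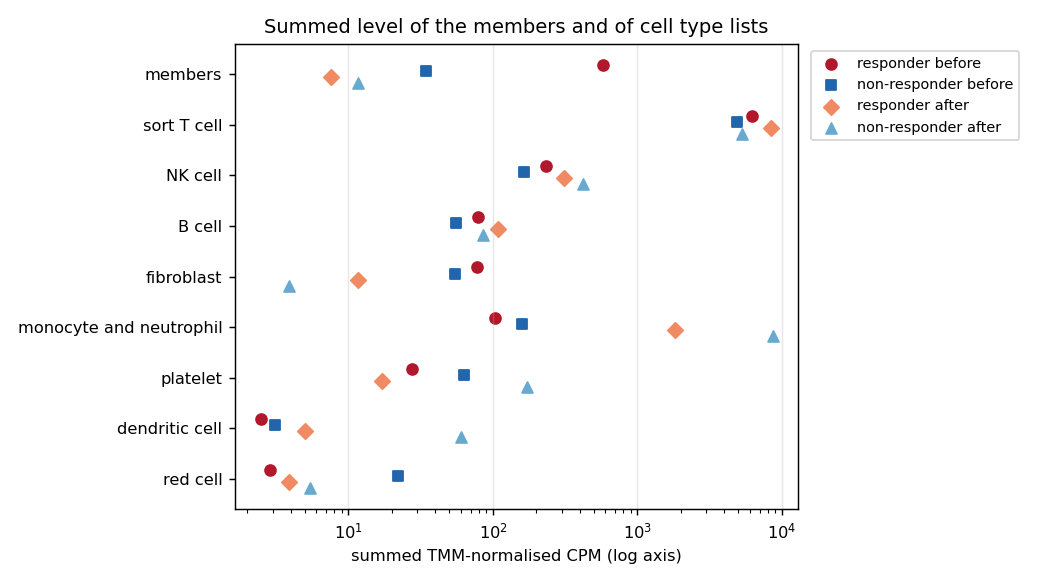
Summed TMM-normalised CPM, on a log axis, of the 34 members and of 8 cell type lists in each library. The members are highest in R-before at 580 CPM, while the monocyte and neutrophil list is lowest there at 103 CPM and highest in NR-after at 8612 CPM.

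The 34 genes lie on 17 chromosomes and have a median length of 4088 bases, against 4529 bases for genes with 5 CPM in the first library. Neighbours within 1 Mb are KRT7, KRT8 and KRT18 on chromosome 12, CDH3 and CDH1 14.6 kb apart on chromosome 16, CLDN3 and CLDN4 on chromosome 7, and P4HA2 and PDLIM4 on chromosome 5. Neighbours did not share levels in every case: CDH3 stood 15.8-fold and CDH1 1.8-fold above the next library. Of the 34, 11 overlap another entry with at least 50 reads in the first library. Without them, 19 of 19 remaining members with 5 CPM lay 2-fold or more above NR-before in R-before, where 11.5% of 12361 genes did. Since the members were chosen for this height, that count is no check on the overlaps.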

How the data were processed

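RNA from CD8+ T cells sorted for high CD11a was turned into cDNA with a SMARTer Ultra Low kit and sequenced from both ends over 101 bases, as the labels' protocols state. Base calling with bcl2fastq 1.8.4 and alignment to hg38 with TopHat2 are named in the submitters' processing notes; which tool counted reads, whether it used strand, and which annotation it read are not stated in those sources. The deposited files hold raw counts per gene, per the file headers, for 64253 genes. Here 4146 genes on alternate contigs and 617 sex-informative genes were left out, and library totals kept all counts. TMM scaling came from edgeR 4.0.16 in R 4.3.3 over 24113 genes that passed filterByExpr. No count model was fitted, because each group holds 1 library. Log2 ratios used a prior of 0.5 counts, and 95% intervals are exact conditional binomial ones, checked on simulated data. Ratios against a count of 0 were set against 3 counts.

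The members and lists were chosen with earlier results of these data known. Named genes are all members, up to 4 genes of each list with the highest CPM, list genes behind a count of 3 or fewer, and the 20 genes furthest above the next library; receptor segment, HLA and KIR genes and clone names were not named, and list genes named beyond this, such as those at or near 0, were picked after their values were seen. Alternatives were library size alone, DESeq2 1.42.0 size factors, a prior of 2, limits of 1, 5 and 10 CPM, folds of 4 and 10, and leaving out libraries or members. The reference at hand was of mouse, so no sequence is printed. Some genes that the naming rule takes are not reported here.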

Additional observations from a re-analysis of the deposited data

Results flagged for a closer look

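For 3 members the responder exceeded the non-responder before therapy and was below it after therapy; with 1 library a group, this difference was not tested. The log2 ratio of FSTL1 was 1.59 before and -9.40 after therapy, that of PLAU 4.33 and -8.81, and that of KRT18 3.63 and -1.67. FSTL1 and PLAU had no count in the later responder, so their later ratios depend on the prior count, and the bounds are at least 112-fold and at least 74.8-fold lower.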

How the results depend on the processing

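Library size alone, DESeq2 size factors and a prior count of 2 left every count of members in the 4 comparisons, and all 339 single-member log2 ratios recomputed, within 1.5 times or within the counting interval, and no sign changed among called ratios. Against a count of 0 that interval is open-ended, so the check says little there. With a prior of 2 the log2 ratio before therapy went from 11.05 to 9.05 for CLDN4 and from 10.01 to 8.01 for MFAP2. Such ratios depend on the prior. A limit of 10 CPM left 14 members in both comparisons with the responder before therapy, 14 above each other library, and a median of 4.24 before therapy, because fewer members were tested. At 1 CPM, 4 members were lower in the responder after therapy; 8 were lower and 1 higher in the later non-responder. At 10 CPM that count lower was 0, and at 4-fold with the 5 CPM limit, where 1 member was tested, it was 0. Leaving out each other library in turn gave 28 to 28 members above the rest, which was the most it could give and says nothing of stability; at 10-fold, a setting added after seeing the data, it was 27. Without mitochondrially encoded counts the members' share was 0.0638% and 0.00363% before therapy. Without FN1 it was 0.0506% and 0.00300% before and 0.000609% and 0.00104% after therapy. Of the 361 list genes, 69 were at least 2-fold above each other library, 37 with a limit of 5 CPM, 45 without the members and 28 in cell type lists alone, the last added after seeing the data. Over all genes, 548 of 16166 with 1 CPM in R-before were so placed, and 146 of 13233 with 5 CPM in any library. The lists were drawn up with earlier results of these data known, so nothing is read from these counts. No paired analysis was possible because each group holds 1 library and no label pairs them. Each group holds 1 library, and depth leaves 12 ratios before therapy as bounds.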
